A study of Mus musculus with 6 samples.

Results

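Oligodendrocytes of the adult mouse striatum were described from droplet-based single-cell RNA-seq libraries. They were taken as the cells whose cluster name in the deposited annotation began with ODC, which gave 1731 of 14373 annotated cells, all of them from 3m libraries. The striatal suspensions had been enriched for astrocytes with magnetic beads against ACSA2, an astrocyte surface antigen, from wild-type male C57BL/6 mice at postnatal day 3 (P3) or 3 months (3m). Each age had 3 libraries, each made from several pooled animals, and the labels give no treatment for either group. Of 11188 P3 cells, 0 were oligodendrocytes, which allows a share of up to 0.0268%. Ratios between cell types were therefore taken within the 3m libraries only. P3 cells and P3 precursors are given as levels, which differ from the oligodendrocytes in age and library. The enrichment was aimed at another cell type, so their share of the preparation is not their share of the tissue. The study describes the libraries of an age as independent preparations.

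Oligodendrocytes wrap axons of the central nervous system in myelin, a multilayered sheath of lipid-rich membrane held together by a small set of abundant proteins. They arise from precursor cells that carry the receptor *Pdgfra*, pass through a newly formed stage, and then switch on myelin genes under factors such as *Sox10* and *Myrf*. In the adult they also couple to astrocytes through gap junctions, store iron and supply axons with metabolites.

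Levels are given as UMIs per 1000000 UMIs (CPM) of all cells of a type in 1 library, where a UMI (unique molecular identifier) stands for 1 captured transcript, in the order of replicates 1, 2 and 3. Differences are the log2 ratio of CPM plus 1 between oligodendrocytes and astrocytes of the same library, as mean ± SD over the 3 libraries. A gene is called higher or lower where the ratio was at least 2-fold in that direction in each of the 3 libraries, and it was assessed where both types together held at least 60 UMIs. The clusters had been drawn from the same cells' transcripts, so these ratios are a description and no test was made on them. Cells of 1 library are not replicates of each other.

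All 5 defining markers were higher in oligodendrocytes than in the 1111 astrocytes, 60 microglia and 163 endothelial cells of the same libraries. Of all genes assessed, 13.7% were higher than in astrocytes and 7.51% higher than in all 3 types. *Mog*, an immunoglobulin-family protein of the outermost myelin layer, stood at 1683, 1314 and 1231 CPM in oligodendrocytes and 6.05, 11.5 and 3.4 CPM in astrocytes. *Opalin*, a transmembrane glycoprotein of oligodendrocytes, was at 1812, 1194 and 1070.3 CPM against 6.05, 5.49 and 8.16 CPM. *Ermn*, a cytoskeletal protein of myelinating cells, was at 2107, 2238 and 2272 CPM against 13.8, 20.9 and 10.9 CPM. For these 3 genes every oligodendrocyte library lay far above every astrocyte library, with log2 ratios of 7.58 ± 0.76, 7.47 ± 0.57 and 7.14 ± 0.45.

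The other two markers were less restricted. *Mal*, a proteolipid that sorts myelin components, reached 8590.5, 9816 and 9972 CPM in oligodendrocytes and 44.1, 63.7 and 23.8 CPM in astrocytes, but 614, 813 and 662 CPM in endothelial cells. *Mobp*, a basic protein of compact myelin, was at 2714, 1325 and 1083 CPM in oligodendrocytes and at 238, 179 and 69.4 CPM in astrocytes, the smallest log2 ratio of the 5 at 3.44 ± 0.54. Oligodendrocyte replicate 1 stood more than 2-fold above both other libraries, and astrocyte replicate 1 was also the highest of its type. Over all 11188 P3 cells, *Mog* and *Opalin* had 0 UMIs, *Mobp* had 2 and *Ermn* had 49, whereas *Mal* held 17.1, 10.4 and 19.5 CPM.

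**Figure D1:**
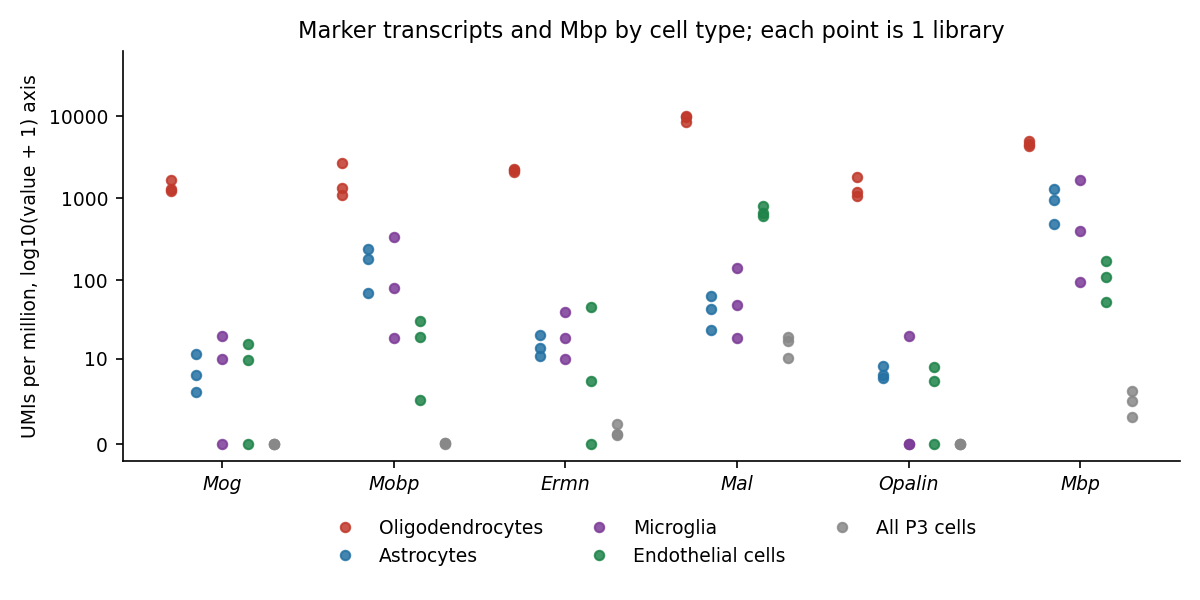
CPM of UMIs (axis in log10 of the value plus 1) of the 5 markers and of *Mbp* in each cell type, with 1 point per library. Oligodendrocyte libraries lie above all others for each gene, *Mal* is the marker that is also high in endothelial cells, and *Mobp* and *Mbp* are the genes with the narrowest gap to astrocytes.

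With each cell thinned to 2000 UMIs, the share of oligodendrocytes with UMIs of at least 3 of the 5 markers was 100%, 99.6% and 99.0% in replicates 1 to 3, over 474, 711 and 512 cells. It was 1.52%, 1.00% and 0.329% among 197, 400 and 304 astrocytes, 0 of 53 microglia (which allows up to 5.66%) and 0 of 150 endothelial cells (up to 2%). No thinned oligodendrocyte lacked all 5 markers. The label was drawn from these same transcripts, so the shares describe the cells and do not test the label.

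The 5 markers share this pattern, so the bases before their transcription starts are shown, 5′ to 3′ on the strand of the gene. The sequences are RefSeq promoters of build GRCm38.p6, each ending at the base before the gene's start in RefSeq or, where it begins earlier, in GENCODE. They lie at chr17:37023399-37023648 (minus strand, *Mog*), chr9:120149492-120149706 (plus, *Mobp*), chr2:58052865-58053114 (minus, *Ermn*), chr2:127656696-127656945 (minus, *Mal*) and chr19:41077114-41077363 (minus, *Opalin*). Capitals mark ACAAAG or its reverse complement CTTTGT, a core that SOX-family factors bind.
Mog: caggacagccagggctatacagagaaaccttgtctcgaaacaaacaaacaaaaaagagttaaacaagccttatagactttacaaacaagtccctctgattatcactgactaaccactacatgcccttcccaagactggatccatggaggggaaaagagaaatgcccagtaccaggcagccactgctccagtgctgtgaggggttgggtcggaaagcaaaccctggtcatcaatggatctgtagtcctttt
Mobp: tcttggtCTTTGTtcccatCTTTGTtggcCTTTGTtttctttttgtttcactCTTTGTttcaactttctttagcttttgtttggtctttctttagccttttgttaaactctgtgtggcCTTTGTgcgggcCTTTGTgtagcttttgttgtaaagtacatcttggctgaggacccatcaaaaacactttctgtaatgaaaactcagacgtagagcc
Ermn: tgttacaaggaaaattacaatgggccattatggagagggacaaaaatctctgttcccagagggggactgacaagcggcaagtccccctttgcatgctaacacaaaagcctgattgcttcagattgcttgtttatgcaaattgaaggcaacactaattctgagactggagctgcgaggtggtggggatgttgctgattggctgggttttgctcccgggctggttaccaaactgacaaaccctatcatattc
Mal: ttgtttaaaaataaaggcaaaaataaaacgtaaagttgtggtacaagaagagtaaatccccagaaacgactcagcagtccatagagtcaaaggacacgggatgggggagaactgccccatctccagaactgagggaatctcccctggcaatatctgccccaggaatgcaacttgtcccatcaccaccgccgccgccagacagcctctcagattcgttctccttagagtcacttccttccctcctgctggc
Opalin: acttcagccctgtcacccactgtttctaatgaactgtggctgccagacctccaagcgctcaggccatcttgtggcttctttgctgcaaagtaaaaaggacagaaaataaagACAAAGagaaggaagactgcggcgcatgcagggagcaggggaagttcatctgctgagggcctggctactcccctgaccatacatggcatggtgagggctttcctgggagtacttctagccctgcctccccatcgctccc

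The *Mobp* sequence held 6 copies of the SOX core and the *Opalin* sequence 1, while those of *Mog*, *Ermn* and *Mal* held 0. Of 32851 promoters in the same table, 16.5% held at least 1 copy within 250 upstream bases. A second motif, CTGGCAC or its reverse complement GTGCCAG, was searched for MYRF and occurred in none of the 5 sequences and in 4.19% of all promoters. These are matches of letters only. Neither motif was present in all 5 windows.

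The oligodendrocytes numbered 474, 735 and 522 in replicates 1, 2 and 3, which was 59.2%, 52.5% and 53.0% of the annotated cells (54.9 ± 3.71%, SD, n = 3). Their clusters followed the library. Cluster 10 held 458 of the 474 oligodendrocytes of replicate 1, while cluster 2 held 702 of 735 and 510 of 522 in replicates 2 and 3, and all are therefore described together. The 33 and 12 cells of cluster 10 in replicates 2 and 3 were deep, with medians of 12617 and 9485 UMIs against 4454 and 4717 in cluster 2. The median mitochondrial share was 7.40% in oligodendrocytes of replicate 1 and 4.12% and 4.27% in the others, and 836 of the 1653 barcodes of that library had at least 10% mitochondrial UMIs. Total depth was 5471573 to 10522151 UMIs per 3m library, of which oligodendrocytes held 4665156, 3812838 and 2711471 and astrocytes 1157485, 1822100 and 1470698. Of all barcode sequences, 37 occurred in 2 or more libraries, 1 of them within the oligodendrocytes.

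Oligodendrocytes had more UMIs per cell than astrocytes in every library, although the test could not call it. The median was 8484, 4530 and 4742 UMIs per oligodendrocyte and 5326, 2971 and 3733 UMIs per astrocyte, a difference of 1909 ± 1116 UMIs (SD, n = 3). An exact permutation test of the paired library medians (sign flips, two-sided) gave p = 0.25, the smallest that 3 libraries allow. Depth per cell was higher in 3 of 3 libraries, with the widest gap, 3158 UMIs, in replicate 1. Median genes per cell were 2108 ± 503 in oligodendrocytes and 1636 ± 380 in astrocytes.

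Of 10178 genes assessed, 1394 were higher in oligodendrocytes (13.7%) and 1715 were lower (16.9%). Without replicate 1, with calls asked of the remaining libraries only, the counts were 1411 and 1582. The median log2 ratio over all genes was 0.06. Against microglia, 2019 of 8934 genes were higher (22.6%) and 644 lower (7.21%), and against endothelial cells 1401 of 9603 were higher (14.6%) and 1422 lower (14.8%). Higher than all 3 types were 661 of 8801 genes (7.51%). Since the clusters were formed on these transcripts, the shares are given as the background for the gene lists and nothing is read from them.

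The 10 largest ratios over astrocytes belonged to *Cldn11*, *Pllp*, *Mal*, *Apod*, *Ptgds*, *Mag*, *Trf*, *Mog*, *Opalin* and *Gjb1*. *Cldn11*, the claudin that seals the layers of myelin, led at 2644, 2115 and 1692 CPM against 5.18, 8.23 and 2.04 CPM, a log2 ratio of 8.57 ± 0.66. *Apod*, a lipid-binding lipocalin, was at 4351, 2442 and 2429 CPM against 12.96, 24.1 and 6.12 CPM. *Ptgds*, which makes prostaglandin D2, was at 13113, 15758 and 18699 CPM against 65.7, 93.8 and 63.9 CPM. Besides these, the group held membrane proteins of myelin (*Pllp*, *Mal*, *Mag*, *Mog*, *Opalin*), the secreted iron carrier *Trf* and the connexin *Gjb1*.

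Of the 23 myelin protein genes, 21 were assessed, 18 were higher in oligodendrocytes and 0 were lower, with a median log2 ratio of 5.91 against 0.06 for all genes. Over all genes 13.7% were higher and 16.9% lower. The list includes the 5 defining markers, all called higher, which alone held 1.69, 1.59 and 1.56% of oligodendrocyte UMIs. Together the 23 genes made up 7.42, 5.55 and 5.11% of oligodendrocyte UMIs and 0.371, 0.426 and 0.268% of astrocyte UMIs. Every oligodendrocyte library lay above every astrocyte library for this sum, and replicate 1 was the highest. *Cnp*, a phosphodiesterase that keeps cytoplasmic channels of myelin open, was at 4526, 3659 and 3202 CPM against 167, 220.1 and 134 CPM. *Mag*, an adhesion protein facing the axon, was at 2218, 1869 and 1577 CPM against 9.503, 11.5 and 4.76 CPM.

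*Mbp*, the basic protein that compacts myelin, showed a narrower gap than most of its list. Its level was 5069.9, 4583 and 4331 CPM in oligodendrocytes and 956, 1317 and 488 CPM in astrocytes, a log2 ratio of 2.45 ± 0.68. The 3 assessed genes that were not called were *Pmp22* (0.72 ± 0.34), *Gpm6b* (1.07 ± 0.21) and *Omg* (-0.37 ± 0.34). *Gpm6b* is a membrane glycoprotein, and *Pmp22* is best known from peripheral myelin. *Mal2* had 1 UMI in oligodendrocytes and 2 in astrocytes.

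Some UMIs of myelin genes were found in astrocytes. The share of thinned astrocytes with a UMI was 13.2, 32 and 16.4% for *Mbp* and 0, 2 and 0.658% for *Mog*, against 100, 99.9 and 100% and 95.4, 88.3 and 88.5% of thinned oligodendrocytes. Where these UMIs come from was not tested.

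The paranodal and nodal members of the myelin list followed the majority. *Cntn2*, an adhesion protein of the juxtaparanode, was at 277, 221 and 220.2 CPM against 3.46, 4.94 and 1.36 CPM. *Hapln2*, which links matrix at nodes of Ranvier, was at 266, 216 and 277 CPM against 2.59, 3.29 and 2.04 CPM. *Nfasc*, whose glial form sits at the paranode, had a log2 ratio of 2.87 ± 0.10. *Jam3* was called higher too, at 354, 162 and 149 CPM, with replicate 1 more than 2-fold above both other libraries.

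**Figure D2:**
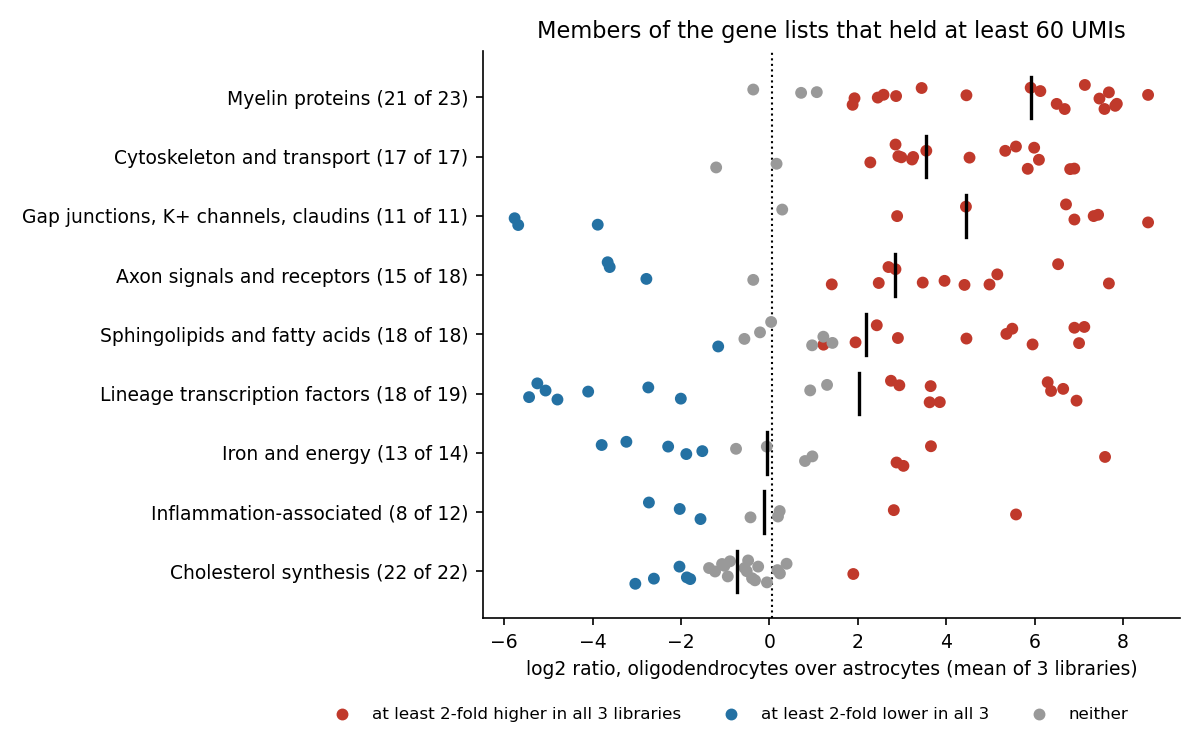
Mean log2 ratio of oligodendrocytes over astrocytes for the assessed members of 9 gene lists, with 1 point per gene, a black bar at the median of each list and a dotted line at the median of all genes (0.06). Myelin, cytoskeleton and channel genes lie mostly to the right, transcription factors split into 9 higher and 7 lower, and cholesterol synthesis genes lie mostly left of the line. Brackets give assessed members of all members. Over all genes 13.7% were higher and 16.9% lower.

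Among 19 transcription factors of the lineage, 9 were higher and 7 lower, with 2 called neither way and 1 too low to assess. Among all genes 13.7% were higher and 16.9% lower. *Sox10*, which directs the lineage and activates myelin genes, was at 274, 349 and 336 CPM in oligodendrocytes and 0.864, 1.098 and 3.4 CPM in astrocytes. *Myrf*, the membrane-bound factor needed for myelin gene expression, was at 188, 225 and 187 CPM against 0.864, 2.74 and 1.36 CPM. *Nkx6-2*, a homeobox factor of myelinating cells, was at 632, 705 and 729 CPM against 17.3, 153 and 37.4 CPM. The 3 factors were high in all oligodendrocyte libraries, but the astrocyte level of *Nkx6-2* spread widely, with replicate 2 the highest.

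*Olig1* and *Olig2*, basic helix-loop-helix factors of the lineage, were higher by 3.65 ± 0.78 and 3.63 ± 1.35, and *Olig2* was at 3.46, 19.2 and 11.6 CPM in astrocytes, again highest in replicate 2. *St18*, a zinc finger factor, was at 100.1, 124 and 122 CPM in oligodendrocytes and had 1 UMI in astrocytes, a ratio of 506 (95% counting interval 90.6 to 19982). *Zfp488*, a zinc finger co-regulator of oligodendrocyte differentiation, was low at 5.79, 9.18 and 5.53 CPM and had 0 UMIs in astrocytes, at least 10.2-fold higher by a floor of 3 UMIs over the group. *Nkx2-2* (1.30 ± 0.50) and *Sox8* (0.92 ± 0.33) were not called.

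The 7 lower factors were *Tcf7l2*, *Sox2*, *Sox6*, *Sox9*, *Hes5*, *Id2* and *Id4*. *Sox9*, a factor of astrocytes and neural stem cells, was at 6.43, 17.3 and 11.8 CPM in oligodendrocytes and 445, 502 and 428 CPM in astrocytes. *Hes5*, a Notch target, was at 7.502, 13.1 and 13.3 CPM against 543, 559 and 458 CPM. *Id2* and *Id4*, which block basic helix-loop-helix factors, differed by -5.07 ± 0.72 and -4.80 ± 0.51. *Tcf7l2*, a Wnt effector known from newly formed oligodendrocytes, was at 30.9, 35.7 and 28.8 CPM in oligodendrocytes and 140.0, 137 and 115 CPM in astrocytes. By the rule of the call, each of the 7 was at least 2-fold lower than in astrocytes of the same library.

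Genes of the precursor stage were at or near 0. *Pdgfra*, the growth factor receptor that defines precursors, had 1 UMI over all oligodendrocytes, against 573, 532 and 731 CPM in the 94 precursors of P3 and 973, 989.9 and 801 CPM in the 13 precursors of 3m. *C1ql1* had 0 UMIs in oligodendrocytes, which allows up to 0.268 CPM, and stood at 452, 671 and 606 CPM in P3 precursors. *Cspg4*, the NG2 proteoglycan, had 5 UMIs and *Cacng4* 5 UMIs. Of the 7 precursor genes, *Ptprz1* alone was assessed, at 18.01, 43.8 and 22.9 CPM in oligodendrocytes and 1143, 1029.6 and 947 CPM in astrocytes. The precursors of 3m replicate 3 were 1 cell, so their levels are coarse.

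Several genes of the newly formed stage were also at or near 0, whereas *Enpp6* and *Bcas1* were not. *Bmp4* and *Neu4* had 0 UMIs in oligodendrocytes, *Tnr* 1 and *Gpr17*, a receptor of cells leaving the precursor stage, 28, at 2.36, 3.15 and 1.84 CPM against 209, 156 and 429 CPM in P3 precursors. *Enpp6*, a choline phosphodiesterase widely used as a marker of newly formed cells, was at 129, 89.96 and 81.5 CPM in oligodendrocytes, 0, 24.2 and 60.6 CPM in P3 precursors and 0 in precursors of 3m. It was found in 17.5, 13.1 and 11.7% of thinned oligodendrocytes and 0, 0.25 and 0% of thinned astrocytes. Of the 10 genes, *Enpp6* and *Lims2* were higher than in astrocytes, *Itpr2* was lower, *Bcas1* (235, 234 and 212 CPM, log2 ratio 1.43 ± 0.60) and *Fyn* (-0.30 ± 0.37) were not called and 5 were too low to assess. Nothing is read from these counts, as 13.7% of all genes were higher and 16.9% lower.

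**Figure D3:**
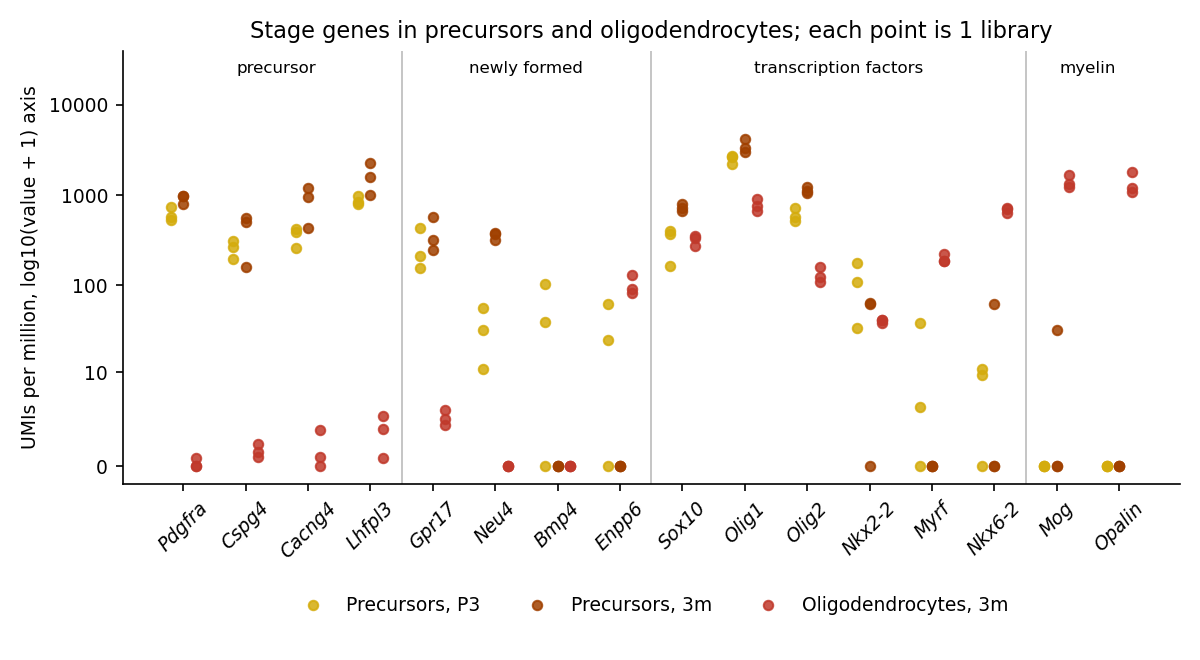
CPM of UMIs (axis in log10 of the value plus 1) of stage genes in precursors of P3, precursors of 3m and oligodendrocytes of 3m, with 1 point per library. Precursor genes are near 0 in oligodendrocytes, *Enpp6* alone of the newly formed genes shown reaches 81.5 to 129 CPM there, *Olig1* and *Olig2* are lower than in precursors, and *Myrf* and *Nkx6-2* are higher.

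The factors themselves differed in level between the stages. *Olig2* was at 727, 567 and 522 CPM in P3 precursors, 1224, 1052 and 1122 CPM in precursors of 3m and 158, 122 and 108 CPM in oligodendrocytes, without overlap. *Olig1* showed the same order, with 3045 to 4144 CPM in precursors of 3m and 2209 to 2706 CPM in P3 precursors against 661 to 903 CPM in oligodendrocytes. *Sox10* overlapped, at 165, 373 and 405 CPM in P3 precursors. *Myrf* was at 0, 3.46 and 37.3 CPM and *Nkx6-2* at 11.02, 0 and 9.32 CPM in P3 precursors, below every oligodendrocyte library. Precursors of P3 come from other libraries and another age, so stage and age cannot be told apart in the P3 values. The precursors of 3m share age and libraries with the oligodendrocytes, but they were only 13 cells.

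Genes for the lipids of myelin divided by pathway. Of 18 genes of sphingolipid and fatty acid metabolism, 11 were higher, 1 was lower and 6 were not called (median log2 ratio 2.19). Over all genes 13.7% were higher and 16.9% lower. *Ugt8a*, which makes galactosylceramide, was at 826, 840.1 and 815 CPM in oligodendrocytes and 4.32, 10.4 and 3.4 CPM in astrocytes. *Fa2h*, which adds the hydroxyl group to its fatty acid, was at 429, 332 and 348 CPM against 0, 2.195 and 4.76 CPM, and *Gal3st1*, which makes sulfatide, at 252, 300.0 and 270.0 CPM against 4.32, 4.94 and 6.12 CPM. *Aspa*, which frees acetate from N-acetylaspartate, was at 868, 668 and 725 CPM against 13.8, 17.6 and 5.44 CPM. These 4 enzymes were among the genes called higher.

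The fatty acid elongases were not uniform. *Elovl7*, *Elovl6* and *Elovl1* were higher by 5.36 ± 0.43, 2.43 ± 0.04 and 1.95 ± 0.25, whereas *Elovl5*, which elongates polyunsaturated fatty acids, was lower at 81.5, 71.9 and 91.1 CPM against 193, 164 and 192 CPM. *Scd2*, a desaturase, was abundant in both types, at 2687, 2136 and 2104 CPM in oligodendrocytes and 674, 1268 and 727 CPM in astrocytes, and was not called because replicate 2 fell short of 2-fold. The subunits *Sptlc1* (-0.21 ± 0.31) and *Sptlc2* (1.22 ± 0.35) of the first enzyme of sphingolipid synthesis were not called either.

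Cholesterol synthesis genes showed no such excess. Of 22 genes, *Ebp* alone was higher, at 105, 101 and 119 CPM against 30.2, 30.7 and 24.5 CPM, 5 were lower and 16 were called neither way, with a median log2 ratio of -0.73. Over all genes 13.7% were higher and 16.9% lower, and nothing is read from the count of lower members. *Msmo1*, a sterol oxidase, was at 158, 114 and 109.9 CPM in oligodendrocytes and 977, 550.5 and 865 CPM in astrocytes, and *Sqle*, squalene epoxidase, at 29.6, 24.4 and 21.8 CPM against 128, 86.7 and 107 CPM. *Tm7sf2* and *Nsdhl*, later enzymes of the pathway, differed by -3.03 ± 0.28 and -1.79 ± 0.18. *Hmgcs1* (-0.33 ± 0.25) and *Fdps* (0.39 ± 0.27) were among those not called.

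Genes of the cytoskeleton and of transport along processes were higher as a block, 15 of 17 (median log2 ratio 3.55) with 0 lower. The shares of all genes were 13.7% higher and 16.9% lower. *Tubb4a*, a tubulin of myelinating cells, was at 2309, 2399.8 and 2433 CPM in oligodendrocytes and 21.6, 24.7 and 15.6 CPM in astrocytes. *Stmn4*, a microtubule regulator, was at 1442, 1456 and 1556 CPM against 8.64, 20.9 and 8.16 CPM, and *Sept4*, a septin, at 2882, 2178 and 2219 CPM against 42.3, 52.7 and 30.6 CPM. *Bin1*, a membrane-bending protein, was at 1252, 1186 and 1092 CPM against 20.7, 27.4 and 23.1 CPM. *Dbndd2* was at 2587, 2755 and 3057 CPM against 346, 244 and 311 CPM. For each of the 5 the oligodendrocyte libraries differed from each other far less than from astrocytes.

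The 2 exceptions in that list were *Dynll2* (0.16 ± 0.19) and *Kif5a* (-1.21 ± 1.20). *Kif5a*, a kinesin motor, was at 30.2, 162 and 101.8 CPM in oligodendrocytes and 161, 389.7 and 101 CPM in astrocytes. Replicate 1 was the lowest of the oligodendrocyte libraries but not of the astrocyte libraries. *Bin1* was not called over microglia, which held 622, 576 and 581 CPM. *Arpc1b*, a subunit of the actin-nucleating Arp2/3 complex, was higher than in astrocytes but lower than in microglia, at 112, 146 and 118 CPM in oligodendrocytes and 474, 486 and 487 CPM in microglia.

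Connexins divided cleanly between the glial types. *Gjb1* (connexin 32) was at 333, 333 and 350.4 CPM in oligodendrocytes and 0, 2.195 and 1.36 CPM in astrocytes. *Gjc3* (connexin 29) was at 586, 429 and 452 CPM against 1.73, 3.84 and 4.08 CPM. The astrocyte connexins showed the reverse. *Gja1* (connexin 43) was at 19.9, 37.5 and 23.97 CPM in oligodendrocytes and 1477, 1496 and 1237 CPM in astrocytes, and *Gjb6* (connexin 30) at 3.86, 7.61 and 5.901 CPM against 381, 351 and 345 CPM. *Gjb1* and *Gjc3* were thus called higher and *Gja1* and *Gjb6* lower.

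Of the 11 genes of gap junctions, potassium channels and claudins, 7 were higher and 3 lower. The shares of all genes were 13.7% and 16.9%. *Kcna1*, a voltage-gated potassium channel, was at 299, 239 and 260.0 CPM in oligodendrocytes and 0, 1.65 and 0.6799 CPM in astrocytes. *Kcna6* was higher by 2.89 ± 0.50. *Kcnj10*, the inward rectifier Kir4.1 that both glial types use to take up potassium, overlapped between them, at 178, 172 and 165 CPM and 101, 228 and 119.7 CPM. Its partner *Kcnj16* was at 0.429, 4.196 and 1.48 CPM in oligodendrocytes and 25.1, 65.3 and 33.3 CPM in astrocytes.

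Among 18 genes of axon signalling, 11 were higher, 3 lower, *Omg* was not called and 3 were too low to assess. Among all genes 13.7% were higher and 16.9% lower. *Rtn4* (Nogo), an inhibitor of axon growth, was at 1900.0, 1515 and 1458 CPM in oligodendrocytes and 168, 145 and 125 CPM in astrocytes. *Gpr37*, an orphan receptor, was at 664, 502 and 441 CPM against 69.98, 76.3 and 70.7 CPM, and *Lpar1*, a lysophosphatidic acid receptor, at 421, 412 and 308 CPM against 15.6, 25.8 and 11.6 CPM. *Efnb3*, an ephrin ligand, was at 392.5, 304 and 267 CPM against 0.864, 3.29 and 4.08 CPM. These receptors and ligands were several-fold above astrocytes in every library.

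The neuregulin receptors did not go together. *Erbb3* was at 70.95, 56.4 and 53.8 CPM in oligodendrocytes against 0, 3.29 and 0.6799 CPM in astrocytes, whereas its partner *Erbb2* had 2 UMIs in all oligodendrocytes. *S1pr5*, a sphingosine-1-phosphate receptor, was higher by 5.16 ± 0.57. *Lingo1*, *Adgrb3* and *Adgrg1* were lower. *Adgrg1* (GPR56), a receptor of the precursor stage, was at 15.4, 13.9 and 7.74 CPM against 88.99, 106 and 71.4 CPM.

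Iron and energy genes differed in both directions, with 4 higher and 5 lower of 14, where 13.7% of all genes were higher and 16.9% lower. *Fth1*, ferritin heavy chain, held 31483, 38439.6 and 41819 CPM in oligodendrocytes and 3829.9, 7232 and 4616 CPM in astrocytes. *Ftl1*, the light chain, was at 1298, 1553 and 1538 CPM against 625, 862 and 762 CPM and was not called (0.97 ± 0.11). Both ferritin genes have processed pseudogenes that can share reads with them. *Trf*, transferrin, was at 5086, 5221 and 5654 CPM against 18.1, 48.3 and 21.1 CPM, whereas its receptor *Tfrc* was lower at 24.2, 15.7 and 16.6 CPM against 50.1, 59.3 and 55.8 CPM. With a cell filter of over 1000 genes and under 5% mitochondrial UMIs, which left 21 oligodendrocytes and 12 astrocytes in replicate 1, the log2 ratio of *Tfrc* turned from -1.52 to 0.79.

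Carbonic anhydrases *Car2* and *Car14* were higher, *Car2* at 4362, 3466 and 3559 CPM against 570.2, 379 and 452 CPM. Lactate dehydrogenase genes were lower, *Ldhb* at 108, 131 and 99.2 CPM in oligodendrocytes and 1654, 1531 and 1522 CPM in astrocytes and *Ldha* at 38.4, 24.1 and 27.7 CPM against 137, 90.01 and 112 CPM. *Cpt1a*, which admits fatty acids to mitochondria, was at 5.36, 5.77 and 4.79 CPM against 51.8, 64.8 and 59.2 CPM. The lactate transporter *Slc16a1* was at 75.2, 52.2 and 43.9 CPM against 32.8, 29.6 and 31.96 CPM, a log2 ratio of 0.80 ± 0.36 that was not called. The iron exporter *Slc40a1* had 2 UMIs in oligodendrocytes.

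Of 12 genes associated with inflammation, *Il33* and *Sgk1* were higher, *C4b*, *H2-K1* and *B2m* were lower, 3 were not called and 4 could not be assessed. Over all genes 13.7% were higher and 16.9% lower, and nothing is read from the counts of this short list. *Il33*, a nuclear cytokine, was at 778, 1067 and 1214 CPM in oligodendrocytes and 107, 188 and 141 CPM in astrocytes. *Sgk1*, a stress-responsive kinase, was at 54.9, 56.9 and 88.5 CPM with 3 UMIs in astrocytes, a ratio of 94.5 (95% counting interval 32.2 to 459). *B2m*, the light chain of antigen-presenting class I molecules, was at 19.5, 19.1 and 10.7 CPM in oligodendrocytes, 66.5, 92.8 and 51 CPM in astrocytes and 1560.3, 1161 and 1255 CPM in microglia. *Serpina3n* had 12 UMIs and *Cd74* had 0 over all oligodendrocytes.

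Immediate early genes, which are switched on within minutes by handling as well as by activity, were mostly low in oligodendrocytes. *Fos* was at 7.29, 1.57 and 1.11 CPM, against 5.18, 9.33 and 8.16 CPM in astrocytes and 1787, 1707 and 2903 CPM in microglia. *Egr1* had 8 UMIs over all oligodendrocytes and *Atf3* 5. *Jun* was the exception in level, at 235, 149 and 217 CPM, 147, 70.2 and 118 CPM in astrocytes and 2913, 3454 and 3390.0 CPM in microglia. *Nr4a1* alone was called higher, at 13.9, 15.2 and 16.96 CPM with 1 UMI in astrocytes, a ratio of 67.2 (95% counting interval 11.9 to 2670.3).

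The 10 smallest ratios belonged to genes of astrocytes. *F3*, tissue factor, was at 11.6, 12.6 and 17.3 CPM in oligodendrocytes and 1375, 952 and 1204 CPM in astrocytes (-6.31 ± 0.40). The others were *Gpr37l1*, *Btbd17*, *Cldn10*, *Fjx1*, *Fzd2*, *Fam20a*, *Gjb6*, *Fam181b* and *Atp1b1*, with log2 ratios from -6.00 to -5.72. *Gpr37l1*, the close relative of *Gpr37*, was at 25.7, 45.1 and 39.1 CPM against 2654, 2061 and 2377 CPM, so the paired receptors split between the types. *Atp1b2*, which encodes the ACSA2 antigen itself, was at 15.6, 53.2 and 30.2 CPM in oligodendrocytes and 1070.4, 1393 and 1150.5 CPM in astrocytes. A UMI of *Atp1b2* was found in 1.899, 7.17 and 2.93% of thinned oligodendrocytes and 80.2, 88.8 and 87.5% of thinned astrocytes.

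Markers of other cell types were checked as whole lists. All 9 astrocyte markers were lower, with summed levels of 539.7 to 1188 CPM in oligodendrocytes and 24425 to 26097 CPM in astrocytes, and the highest oligodendrocyte sum was in replicate 2. The 4 precursor markers summed to 0.525 to 2.21 CPM in oligodendrocytes, with *C1ql1* at 0. The 6 microglial markers summed to 18.1 to 47.6 CPM in oligodendrocytes and 17500.5 to 23824 CPM in microglia. The 5 neuronal markers summed to 4.07 to 11.8 CPM, the 4 haemoglobin genes to 1.07 to 4.43 CPM, and the Schwann cell markers *Prx* and *Pmp2* were at 0 in all libraries.

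Vascular markers were highest in replicate 1, where 3 barcodes or fewer held all UMIs of *Vtn* and of *Cldn5*. The 5 endothelial markers summed to 48.2, 0.787 and 2.95 CPM in oligodendrocytes and the 5 pericyte markers to 59.6, 1.84 and 2.58 CPM. In replicate 1, *Vtn*, a pericyte-enriched gene, had 199 UMIs in 3 oligodendrocyte barcodes, 197 of them in 1 barcode, and *Cldn5*, an endothelial claudin, had 97 UMIs in 2 barcodes. Of the 3 multiciliated-cell markers, *Foxj1* was higher in oligodendrocytes, at 30.01, 34.4 and 29.1 CPM against 5.18, 1.65 and 6.12 CPM, while *Tmem212* had 0 UMIs and *Ccdc153* had 1. A *Foxj1* UMI was found in 4.85, 6.89 and 6.84% of thinned oligodendrocytes and 0, 0.5 and 0.658% of thinned astrocytes.

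Among the oligodendrocytes of a library, some transcripts varied far more than counting noise. With 1697 cells thinned to 2000 UMIs each, the median gene had a variance to mean ratio of 1.01 to 1.02. Among the 15 most variable genes were *Malat1*, *Ptgds*, *Cst3*, *Fth1*, *Clu*, *Mal*, *Tulp3*, *Apoe*, *S100b*, *Klk6*, *Mt3*, *Slc1a2*, *Trf* and *Apod*. *Ptgds* had ratios of 27.6, 28.7 and 32.95 and *Klk6*, a secreted serine protease, 3.63, 4.16 and 3.46. *Malat1* is a nuclear noncoding RNA, and *Fth1*, *Mal* and *Trf* are among the most abundant transcripts of these cells. *Cst3* (9.898, 15.4 and 11.9), *Clu*, *Mt3* and *Slc1a2* were among the genes lower than in astrocytes. Before thinning, 10 oligodendrocyte barcodes per library held 443 of 760, 405 of 1440 and 276 of 699 *Slc1a2* UMIs. Doublets were not removed, and whether the variation of these genes lies within oligodendrocytes was not tested. *Tulp3*, with ratios of 4.93, 4.04 and 5.07, averaged only 55.9, 61.9 and 61.5 CPM.

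*Klk6* and *Ptgds* belong to 2 sets of mature oligodendrocyte genes known from other regions, and the cells were therefore split by *Klk6*. The split was chosen after the values had been seen and is a description with no test. *Klk6* was at 199.8, 162 and 176 CPM in oligodendrocytes and had 1 UMI over all astrocytes, a ratio of 807 (95% counting interval 145 to 31874). Of thinned oligodendrocytes, 55 of 474, 60 of 711 and 58 of 512 had a *Klk6* UMI, which was 11.6%, 8.44% and 11.3% (Wilson 95% intervals 9.02 to 14.8%, 6.61 to 10.7% and 8.87 to 14.4%, for counting error only). Of 901 thinned astrocytes 0 had one, which allows up to 0.333%. The intervals of the 3 libraries overlap.

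In cells with a *Klk6* UMI, 4 of the 5 other genes of its set were higher, and of the 8 genes of the *Ptgds* set 3 were lower, 1 was higher and 4 were not called. Of 5587 genes assessed between the 2 kinds of cell, 43 were at least 2-fold higher in each library (0.77%) and 45 lower (0.805%), on the scale of CPM plus 10. *S100b*, a calcium-binding protein, was found in 94.5, 88.3 and 91.4% of *Klk6* cells and 15.04, 19.8 and 16.5% of the others. *Hopx*, a homeodomain-only protein, was found in 38.2, 60 and 51.7% and 2.15, 2.61 and 2.64%. *Anxa5*, an annexin, was found in 38.2, 41.7 and 32.8% and 7.88, 7.99 and 9.25%, and *Mgst3*, a glutathione transferase, in 47.3, 40 and 27.6% and 5.01, 8.91 and 7.27%. *S100a1* of the same set differed less than these 4, at 52.7, 55 and 51.7% and 41.3, 43.6 and 39.9%. The 2 kinds of cell did not overlap between libraries for any of the 4 or for *S100a1*, which was not called. How many of all genes were without overlap was not counted, so nothing is read from this.

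The other set was split. *Ptgds* was found in 16.4, 26.7 and 29.3% of *Klk6* cells and 92.4, 92.5 and 93.6% of the others, *Il33* in 25.5, 21.7 and 36.2% and 78.04, 87.6 and 89.9%, and *Opalin* in 25.5, 20 and 34.5% and 93.1, 87.4 and 87.9%. *Car2* and *Trf* were found in nearly every cell of both kinds, *Grm3*, a glutamate receptor, in 14.5, 11.7 and 8.62% and 11.7, 16.7 and 19.6%, and *Dock5* in 12.7, 11.7 and 6.897% and 7.88, 9.22 and 5.51%. *Apod*, listed with *Ptgds*, was instead higher in *Klk6* cells, at 8718, 5533 and 4750 CPM against 3927, 2051 and 2015 CPM. The defining marker *Opalin* thus differed between the 2 kinds of cell, while *Mal* was found in all cells of both and *Mog* in 94.5, 91.7 and 81.03% and 95.5, 88.02 and 89.4%.

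**Figure D4:**
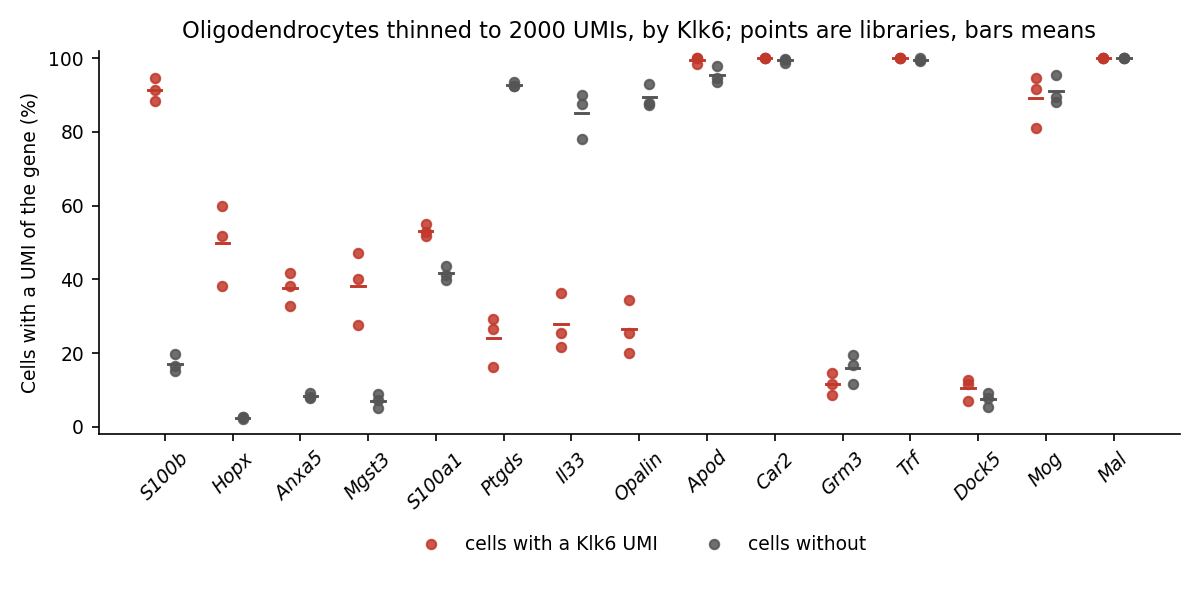
Share of oligodendrocytes with a UMI of each gene among cells with and without a *Klk6* UMI, all thinned to 2000 UMIs, with 1 point per library and a bar at the mean. *S100b*, *Hopx*, *Anxa5* and *Mgst3* are more frequent in *Klk6* cells, *Ptgds*, *Il33* and *Opalin* are less frequent, and *Car2*, *Trf* and *Mal* are near 100% in both.

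Further genes followed the split in all 3 libraries. After *Hopx* and *S100b*, the largest ratios were those of *Nkx2-9*, a homeobox factor (127, 175 and 121 CPM against 2.39, 6.91 and 2.203 CPM), and *Uchl1*, a ubiquitin hydrolase (145, 183 and 121 CPM against 9.55, 6.91 and 5.51 CPM). *Enpp6* was higher in *Klk6* cells, at 409, 308 and 250 CPM against 89.5, 60.7 and 44.1 CPM, as were *Ldhb* (345, 367 and 259 CPM against 57.3, 96.8 and 70.5 CPM), *Plin3*, *Selenop*, *Hapln2* and *Pmp22*. Thus *Enpp6*, of the newly formed list, and *S100b*, of the mature list, were both higher in *Klk6* cells. The newly formed list did not move together. Of its 4 assessed genes, *Enpp6* alone was higher and *Lims2* was lower, at 18.2, 8.33 and 17.2 CPM against 50.1, 35.3 and 46.3 CPM. Lower were *Hebp1*, *Cd9* (245, 233 and 310.3 CPM against 1437, 1159.8 and 1296 CPM), *Apoe* (791, 692 and 776 CPM against 3161, 2618 and 1971 CPM) and *Cd63*. *Klk6* cells held 55 to 60 cells per library, so these thinned sums are small and genes of low level were not measurable.

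Members of the other lists were seldom called, as were genes at large (0.77% higher and 0.805% lower), and nothing is read from their counts. None of the assessed members of the lineage factor (13), sphingolipid (18), cholesterol (14), channel (9) and axon signal (12) lists was called either way, and 4 of 21 myelin protein genes were, *Pmp22* and *Hapln2* higher and *Opalin* and *Cd9* lower. In the cytoskeleton list *Tppp3* and *Anln* were higher and 1 of 17 genes was lower. Of the astrocyte markers 7 were assessed and 0 were called.

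The oligodendrocytes of replicate 1 differed from both other libraries in a small set of genes. Of 3068 genes with at least 50 CPM in a library, 13 were at least 2-fold higher there than in both others and 19 lower. In replicate 2 the counts were 4 and 0, and in replicate 3 they were 0 and 0. *Hist1h1c*, a linker histone, was at 144, 43.3 and 34.3 CPM, *Hsp90aa1*, a chaperone, at 2052, 878 and 668 CPM and *Calr*, a chaperone of the endoplasmic reticulum, at 286, 120.4 and 90.4 CPM in oligodendrocytes. *mt-Co3*, encoded by the mitochondrial genome, was at 14411, 5166 and 5315 CPM. Others that were higher included *mt-Nd3*, *mt-Atp6*, *Mobp* and *Jam3*, and those lower included *Mt3*, *Clu* and *Kif5a*.

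Lower in replicate 1 were *Bc1*, a small noncoding RNA, at 3.43, 129 and 92.6 CPM, *Gng13* at 6.22, 51.1 and 40.9 CPM, *Hist1h1e* at 26.4, 122 and 166 CPM, *Lars2* at 163, 598 and 690.0 CPM and *Ccdc152* at 4.07, 53.5 and 17.3 CPM. Astrocytes of the same libraries showed these patterns too, with *Bc1* at 16.4, 340.3 and 115 CPM and *Lars2* at 248, 1643 and 1369 CPM. Replicate 2 was higher in *Ccdc152*, *Slc4a4*, *Sparc* and *Sparcl1*, the last at 68.8, 235 and 115 CPM in oligodendrocytes and 2719.7, 4404 and 3215 CPM in astrocytes. The median mitochondrial share of replicate 1 is given above, and its part in these differences was not tested.

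**Figure D5:**
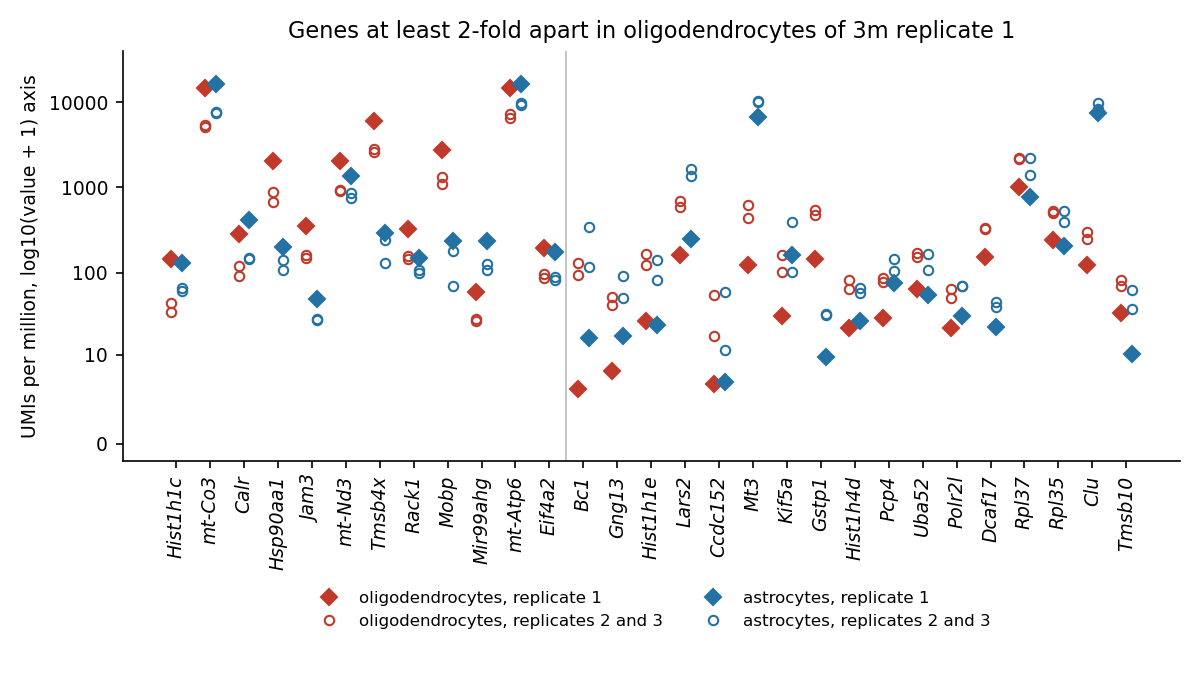
CPM of UMIs (axis in log10 of the value plus 1) of genes that were at least 2-fold apart in oligodendrocytes of 3m replicate 1 from both other libraries (left of the line higher, right lower), in oligodendrocytes and in astrocytes. Filled diamonds are replicate 1 and open circles replicates 2 and 3, and for most genes the astrocytes of replicate 1 lie on the same side as its oligodendrocytes.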

How the data were processed

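UMI counts per gene and barcode, deposited by the authors before any cell filter, covered 32285 genes and 16690 barcodes of 6 libraries. Per the labels and methods, 10x 3′ reads were mapped to mm10 and counted with Cell Ranger, and cells were clustered and named with Seurat (3.1.1 in the submitters' processing notes). The deposited annotation held the 14373 barcodes with over 500 genes and under 10% mitochondrial UMIs, and gave the cluster names used here. UMIs were summed per library and cluster name (Python 3.11.15, numpy 2.4.6, pandas 2.3.3, scipy 1.17.1). Doublets were not removed. Pseudocounts were 1 CPM, and 10 CPM for the *Klk6* split, which also needed 60 UMIs. A gene with 0 UMIs in a group was given a floor of 3 UMIs over the group, and intervals cover counting error only. The code that makes the ratio calls was checked on simulated counts. TMM and RLE factors came from edgeR 4.0.16, as alternatives.

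Members and gene lists were chosen with earlier results of these data known, and no list is independent evidence. Named genes are the 5 markers, up to 6 members per list by level or direction, the 10 largest and 10 smallest ratios with at least 50 CPM, the 15 most variable with at least 20 CPM and the 5 furthest apart in 1 library each way, leaving out unnamed genes. Others were chosen after their values were seen, and a few named by the rule are not reported here. Gene starts are from GENCODE M21, and promoters from RefSeq.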

Additional observations from a re-analysis of the deposited data

Results flagged for a closer look

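Barcodes outside the annotation carried oligodendrocyte transcripts at 3m. UMIs of at least 3 of the 5 markers were found in 156 of 852 such barcodes of replicate 1 (18.3%), 33 of 370 of replicate 2 (8.92%) and 40 of 323 of replicate 3 (12.4%). At P3 the count was 0 of 772. Barcodes outside the annotation were shallower at P3, with medians of 949, 744 and 599 UMIs against 3630, 1516 and 1458 UMIs at 3m. The 2 ages are therefore not compared at equal depth. By the same criterion, without thinning, 100%, 99.9% and 100% of annotated oligodendrocytes and 3.29%, 2.59% and 1.12% of annotated astrocytes were positive. The marker-positive barcodes of replicate 1 had a median of 6433 UMIs and a mitochondrial share of 14.1%. In replicates 2 and 3 their medians were 1838 and 2006 UMIs, with 12.4% and 12.3%. No cause was tested.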

How the results depend on the processing

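The counts of genes higher and lower than in astrocytes stayed within 1.5 times under TMM and RLE scaling, a pseudocount of 5 CPM, no filter on low genes, thinning, removal of barcodes marked by Scrublet and, chosen after seeing the data, astrocyte cluster 5 alone. The exception was the filter of over 1000 genes and under 5% mitochondrial UMIs, which gave 799 lower genes and moved the share of higher genes among calls from 44.8% to 57.2%. It left 21 oligodendrocytes and 12 astrocytes in replicate 1, where oligodendrocytes then made up 25.6% of cells, against 70% and 68.6% in replicates 2 and 3, and it widened the difference in median UMIs from 1909 to 2884. *Tfrc* reversed to 0.79 under it, and 15 of 135 called named genes lost their call there, *Il33*, *Mbp*, *Elovl5*, *Nsdhl* and *Plekhb1* among them. Calls were also lost with astrocyte cluster 5 alone (*Degs1*, *Ephb1*, *Lingo1*, *Snap25*, *Sparc*, *Tfrc*), a pseudocount of 5 CPM (*C4b*, *Snap25*, *Tfrc*) and thinning (*Snap25*, *Zfp488*), and 0 calls were lost under the other settings named. Leaving out each library in turn gave 1411 to 1495 higher and 1549 to 1594 lower genes, oligodendrocyte shares of 52.8 to 56.1%, differences in median UMIs of 1284 to 2358, myelin shares of 5.33 to 6.48% and, chosen after seeing the data, *Klk6* shares of 9.88 to 11.5%. Without replicates 1, 2 and 3 in turn, 1 (*Zfp488*), 3 (*Lingo1*, *Snap25*, *Zfp488*) and 1 (*Lingo1*) of the 135 called genes lost their call. Thinning to 1000 UMIs lowered the mean *Klk6* share from 10.46% to 8.09%, since fewer UMIs were drawn per cell. Scrublet marked 29 of 1731 oligodendrocytes. Values for microglia rest on 17 to 23 cells per library. Oligodendrocytes and astrocytes were paired by library throughout. Between the ages, whose libraries share replicate numbers, no paired analysis was possible because P3 held 0 oligodendrocytes.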
